A study of Mus musculus with 4 samples.

Results

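The integrated stress response was followed through 10 listed genes, which were Atf4, Ddit3, Asns, Trib3, Chac1, Atf5, Cebpb, Atf3, Nupr1 and Ppp1r15a. The list was drawn up with earlier results of these data known. All 10 were found in a table of raw read counts for 45706 genes, and all 10 passed the filter on low counts. The tested libraries (2) came from V6.5 mouse embryonic stem cells of genotype KLF KO, collected after 24 h of doxycycline, and the libraries they were set against (2) from V6.5 cells labelled KLF WT at 0 h. Both groups carried, per the labels, a lentiviral vector in which doxycycline turns on Cas9 together with GFP, with guides to KLF4 alone or to all of KLF2, KLF4 and KLF5, and both grew in 2i medium with LIF over irradiated feeder cells. Sample titles call the lines TKO and the 24 h cells KLF4 KO. The cells came from picked clones whose knockout was checked by western blot, and no label says whether the groups or the replicates A and B share a clone. Exposure to doxycycline, DNA cutting by Cas9, KLF loss and culture time therefore cannot be told apart in this comparison.

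The integrated stress response begins when kinases that sense amino acid shortage, double-stranded RNA, haem shortage or misfolded protein phosphorylate the translation factor eIF2. General protein synthesis then falls, while the Atf4 transcript, which carries short upstream reading frames, is translated more. The ATF4 protein pairs with C/EBP factors on C/EBP-ATF response elements, and raises genes for amino acid supply and for further stress factors. Since ATF4 is controlled largely at translation, its transcript level is not a reading of its activity, and its targets are the usual RNA readout.

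The C/EBP-ATF response element was searched for as TGATGNAA on both strands of each gene's promoter window, taken from RefSeq on GRCm38.p6 as 250 bases before the start site and 50 after it. All 10 genes had a window (11 windows, since Atf5 has a pair of starts). The element was matched in 5 of the 10 genes, against 3.97% of 32851 windows of that length. These genes are established stress response targets, so the matches describe them and test nothing. The 5 matches are shown with 10 bases on each side because they are the sequence that the targets share, with the element in capitals and every line 5′ to 3′ on the gene's own strand.
Asns (chr6:7693215-7693242, minus strand, element 23 bases before the start): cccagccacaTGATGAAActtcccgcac
Chac1 (chr2:119351039-119351066, plus strand, 193 bases before the start): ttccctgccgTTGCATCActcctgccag
Atf3 (chr1:191183426-191183453, minus strand, 110 bases before the start): cttctcgcacTTGCATCAccaagtccgc
Nupr1 (chr7:126625563-126625590, minus strand, 110 bases before the start): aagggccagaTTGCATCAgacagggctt
Trib3 (chr2:152344029-152344056, minus strand, element beginning at base 15 of the transcript): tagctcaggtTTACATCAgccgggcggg

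Chac1, Atf3 and Nupr1 carried the same letters, TTGCATCA, which read on the other strand follow the searched pattern. Asns carried the element in the opposite orientation, close to its start. Ppp1r15a had a cyclic AMP response element (searched as TGACGTCA, its own reverse complement, found in 1.79% of windows) at 12 bases before its start, and no other member had that element.
Ppp1r15a (chr7:45526263-45526290, minus strand): gcctctccggTGACGTCAgcacagcgcc
The endoplasmic reticulum stress element, searched on both strands as CCAAT and CCACG with 9 bases between them, was in 0 of the 10 genes and in 0.119% of windows. No member matched more than 1 of the 3 patterns.

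Ddit3, the 1 member past the test at 24 h, held no exact match to any of the 3 patterns in its window. The 250 bases before its start are shown because it is the member whose level moved most clearly, and those of Asns because it is the most abundant.
Ddit3 (chr10:127290543-127290792, plus strand): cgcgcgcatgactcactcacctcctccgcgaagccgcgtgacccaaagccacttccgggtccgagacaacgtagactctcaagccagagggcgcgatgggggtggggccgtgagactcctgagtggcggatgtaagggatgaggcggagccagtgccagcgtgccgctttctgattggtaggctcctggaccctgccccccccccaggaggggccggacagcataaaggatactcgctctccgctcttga
Asns (chr6:7693210-7693459, minus strand): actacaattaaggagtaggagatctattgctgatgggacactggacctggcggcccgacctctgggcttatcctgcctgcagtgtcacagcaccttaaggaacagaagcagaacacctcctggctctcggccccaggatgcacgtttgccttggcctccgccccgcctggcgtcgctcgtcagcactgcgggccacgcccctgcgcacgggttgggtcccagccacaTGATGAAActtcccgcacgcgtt
Only exact matches were searched for. In the Ddit3 bases shown, CCAAT on the other strand is followed after 9 bases by GCACG. That differs from the searched CCACG in its first letter only. The missing exact matches in the window of Ddit3 thus say nothing of variant elements, or of elements farther away.

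Library totals were 46031578 to 52412844 counts. Replicate A of the 0 h group stood apart. Its deviation in log2 CPM (counts scaled to the library total, with TMM factors) followed GC content over 14331 genes (r = 0.576, genes not being independent replicates), against -0.307 to -0.221 in the other 3 libraries. Replicates A and B differed in log2 CPM with an SD over tested genes of 0.38 for the 24 h pair and 0.515 for the 0 h pair. Of 8 embryonic stem cell markers, 4 fell past edgeR's test (Pou5f1, Zfp42, Utf1 and Tdh), where 2.65% of all genes tested did. The other 4 did not pass, with log2 fold changes of -0.29 (Nanog), 0.07 (Sox2), 0.01 (Esrrb) and 0.16 (Dppa5a). Levels of the 8 lay between 55.31 and 936.6 CPM at 24 h. The 12 feeder fibroblast markers summed to 141.8 and 138.4 CPM at 24 h, against 171.1 and 127.5 CPM at 0 h (A and B). Of 9 tested, 1 was past edgeR's test (Pdgfrb, lower, log2 fold change -1.02, adjusted p = 0.0217), where 6.8% of all genes tested were. Lum, Dcn and Twist2 were at or under 0.2263 CPM in every library. In bulk RNA, fewer cells of a type and less RNA per cell cannot be told apart. Of the genes the guides name, Klf5 was at 225.9 and 215.6 CPM at 24 h, against 430.9 and 294.3 CPM at 0 h. Klf4 was at 244.4 and 235.7 CPM at 24 h, against 331.4 and 257.0 CPM at 0 h, and Klf2 at 147.3 and 152.5 CPM at 24 h, against 231.9 and 123.5 CPM at 0 h. None of the 3 was past edgeR's test (adjusted p = 0.0567, 0.223 and 0.58), and 1 had an unadjusted p under 0.05, where 25.8% of all genes tested did. DESeq2 called 1 lower (11.1% of all genes called) and limma voom 0 (6.03%).

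Taken over the 10 genes, the stress response transcripts did not move together after 24 h of doxycycline. Ddit3 rose 1.40-fold, Atf4 had a log2 fold change of -0.01, and the remaining 8 did not pass the test either. In value, 3 were higher and 7 lower. Of the 10, 1 was past edgeR's quasi-likelihood test at a Benjamini-Hochberg adjusted p of 0.05, where 6.8% of the 18005 genes tested were (4.15% higher, 2.65% lower), and 3 had an unadjusted p under 0.05, where 25.8% of all genes tested did. Leaving out 0 h replicate A gave 3 members past the test (32.2% of all genes), leaving out 0 h replicate B gave 7 (50.2%), and leaving out either 24 h library gave 0 (3.02% without A, 2.71% without B). Both 24 h libraries lay above both 0 h libraries in 3 members (29.3% of all genes tested) and below them in 3 (29.5%), so that 6 of the 10 did not overlap, against 58.8% of all genes. The median log2 fold change of the members was -0.15, and -0.01 over all genes tested.

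**Figure D1:**
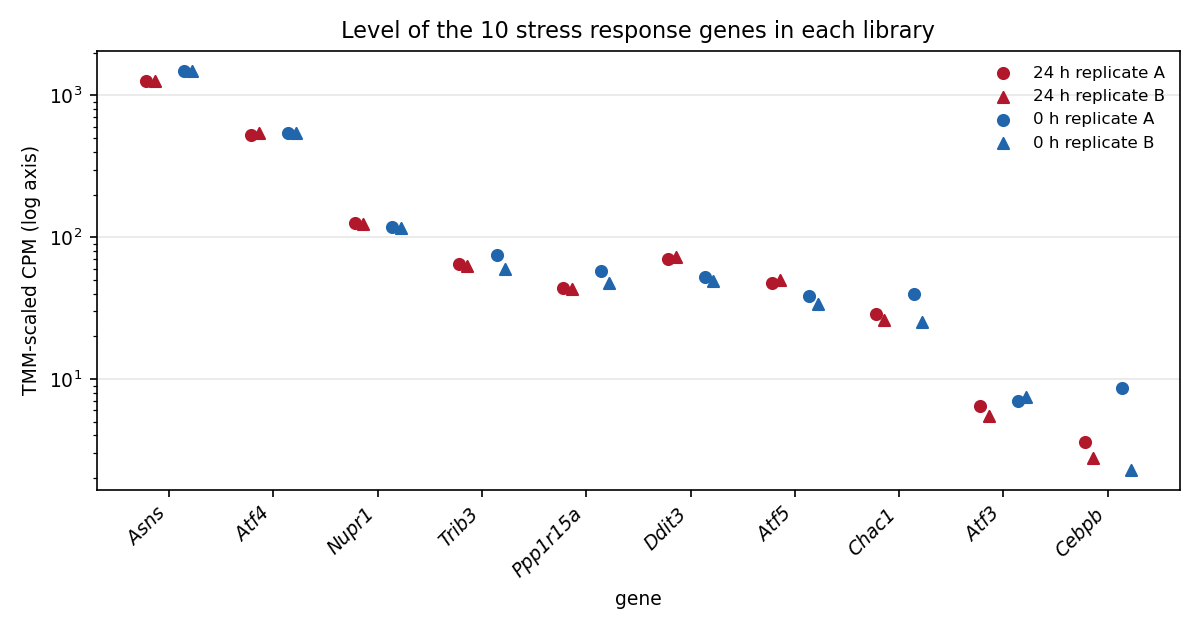
Level of each of the 10 genes in each of the 4 libraries, in TMM-scaled CPM on a log axis, with 24 h in red left of 0 h in blue, circles for replicate A and triangles for B. Levels run from 1495 CPM (Asns, 0 h replicate B) to 2.284 CPM (Cebpb, 0 h replicate B), and the widest gap between replicates is that of Cebpb at 0 h.

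Atf4 (chromosome 15, 80255184 to 80257541, plus strand), the transcription factor at the centre of the response, had 529.4 and 547.0 CPM in the 24 h libraries, against 547.4 and 539.5 CPM in the 0 h libraries (replicates A and B). The groups overlapped, and the values of all 4 libraries lay close together. Its log2 fold change was -0.01 (SE 0.09, edgeR adjusted p = 0.938), with a 95% interval of the fold from 0.853 to 1.15. Per length, Atf4 ranked at percentile 98.8 of all genes tested, at 706 ± 8.1 TPM at 24 h and 696 ± 3.8 TPM at 0 h (TPM, levels per length computed from union exon length, SD, n = 2 each).

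Ddit3 (chromosome 10, 127290774 to 127296288, plus strand) encodes CHOP, a C/EBP-family factor that ATF4 raises and that is linked to cell death under prolonged stress. Its counts were 3494 and 3377 in the 24 h libraries, against 2636 and 2399 in the 0 h libraries. Scaled, that was 70.32 and 72.17 CPM at 24 h, against 52.11 and 49.36 CPM at 0 h. Both 24 h libraries were above both 0 h libraries, and the gap between groups was wider than that between replicates. The log2 fold change was 0.49 (SE 0.10, fold 1.40, 95% interval of the fold 1.18 to 1.67), past edgeR's test at an adjusted p of 0.0397. The fold change placed Ddit3 at percentile 85.9 of all genes tested, so larger rises were common in this comparison. The call rested on both 24 h libraries, with an edgeR adjusted p of 0.457 when 24 h replicate A was left out and 0.567 when B was (log2 fold changes 0.49 and 0.46). The exons of Ddit3 share 68 bases with those of Mars on the other strand, which is 4.0% of its exonic length, and the strand setting of the counting is not given in the sources used here. Mars, the methionyl-tRNA synthetase, was at 284.4 and 282.0 CPM at 24 h, against 394.3 and 317.6 CPM at 0 h, which is the opposite direction to Ddit3. By the smallest distance between centred log2 CPM profiles over the 4 libraries, among 11309 other genes with a mean of at least 5 CPM, the genes most like Ddit3 were Abcc4, Svil and Alg8 (root mean square distances 0.013, 0.019 and 0.021).

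Atf5, a close relative of ATF4 whose transcript is also controlled by upstream reading frames, had the next largest rise in value. It stood at 47.66 and 49.77 CPM in the 24 h libraries, against 38.25 and 33.91 CPM in the 0 h libraries. The groups did not overlap, and its log2 fold change was 0.43 (SE 0.12, fold 1.35), but it was not past edgeR's test (adjusted p = 0.0771). Atf5 has a GC content of 61.7%, and once each library's trend with GC content and length was taken out its log2 fold change was 0.78 (edgeR adjusted p = 0.00408). With 0 h replicate A left out it was 0.52, and with B left out 0.34, both past the test in settings that called many genes. It was also past the threshold with upper quartile scaling (edgeR adjusted p = 0.0484), library size scaling (0.0453) and in DESeq2's Wald test (0.0429), but not without 24 h replicate A (0.547) or B (0.7). Exons of Atf5 share 82 bases (4.1%) with Il4i1 on the other strand, which was at 5.937 and 5.706 CPM at 24 h, against 6.503 and 3.992 CPM at 0 h.

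The other stress-induced transcription regulators were steady, low or uneven between replicates. Nupr1, a small chromatin protein induced by many stresses, was at 125.6 and 124.4 CPM at 24 h, against 118.8 and 115.7 CPM at 0 h. Both 24 h libraries were higher, yet the log2 fold change was 0.09 and was not past edgeR's test (adjusted p = 0.583). Atf3, which ATF4 raises in acute stress and which represses many of its targets, was at 6.44 and 5.513 CPM at 24 h, against 7.017 and 7.469 CPM at 0 h. These levels came from 320 and 258 counts at 24 h, against 355 and 363 counts at 0 h. The 24 h libraries were lower without overlap (log2 fold change -0.28, SE 0.17, edgeR adjusted p = 0.333).

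Cebpb, a C/EBP factor that pairs with ATF4, was decided by a single library. It had 3.603 and 2.778 CPM at 24 h, against 8.697 and 2.284 CPM at 0 h. The 0 h replicates thus differed 3.81-fold, and the 24 h values lay between them. Its log2 fold change of -0.78 (SE 0.54, edgeR adjusted p = 0.392) became 0.48 when 0 h replicate A was left out and -1.45 when 0 h replicate B was, so no direction can be given. Cebpb has the highest GC content of the members, 67.2%, and 312 bases of its exons (20.7%) are shared with Tmem189 on the other strand, so its counts are uncertain. Tmem189 was at 26.55 and 25.6 CPM at 24 h, against 39.2 and 30.2 CPM at 0 h.

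Asns (chromosome 6, 7675169 to 7693254, minus strand), which makes asparagine and is the textbook target of amino acid shortage, was the most abundant member and was lower at 24 h in value. It had 1260 and 1257 CPM in the 24 h libraries, against 1478 and 1495 CPM in the 0 h libraries. Replicates lay far closer together than the groups did, and the groups did not overlap. The log2 fold change was -0.24 (SE 0.09, fold 0.847), which was not past edgeR's test (adjusted p = 0.145, unadjusted p = 0.0275). Removal of the GC and length trend gave -0.30, past the test (edgeR adjusted p = 0.0028) in a setting that called 26.1% of all genes. It was not past the threshold with the replicate block (edgeR adjusted p = 0.199) or in DESeq2's Wald test (0.262). The log2 fold change was -0.25 with 0 h replicate A left out and -0.24 with B left out. Without 24 h replicate A it was -0.26, and without 24 h replicate B -0.25. The 95% interval of the fold, 0.737 to 0.973, lay below 1 before adjustment.

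Trib3 and Chac1, which ATF4 and CHOP raise together, did not pass the test. Trib3, a pseudokinase that restrains ATF4 in a feedback loop, was at 65.09 and 62.68 CPM at 24 h, against 74.9 and 59.75 CPM at 0 h. Chac1, which degrades glutathione, was at 28.94 and 26.14 CPM at 24 h, against 39.47 and 25.1 CPM at 0 h. In both genes the 24 h values fell between the 0 h replicates. The log2 fold changes were -0.08 for Trib3 and -0.23 for Chac1 (edgeR adjusted p = 0.751 and 0.523), and 0.10 and 0.13 without 0 h replicate A. With 0 h replicate B left out instead they were -0.23 and -0.52, so that no direction can be given for either gene. The 95% intervals of the fold were 0.763 to 1.18 for Trib3 and 0.607 to 1.2 for Chac1. Their difference from Ddit3 was not tested.

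Ppp1r15a encodes GADD34, which directs a phosphatase to eIF2 and so ends the response. It was at 43.67 and 42.95 CPM at 24 h, against 57.52 and 47.28 CPM at 0 h. Both 24 h libraries were lower, but the 0 h replicates lay farther apart than the nearer of them lay from the 24 h libraries. The log2 fold change was -0.27 (SE 0.13, edgeR adjusted p = 0.229). It was -0.13 with 0 h replicate A left out, and -0.41 with B left out. Its exons share 12 bases (0.4%) with Tulp2 on the other strand.

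**Figure D2:**
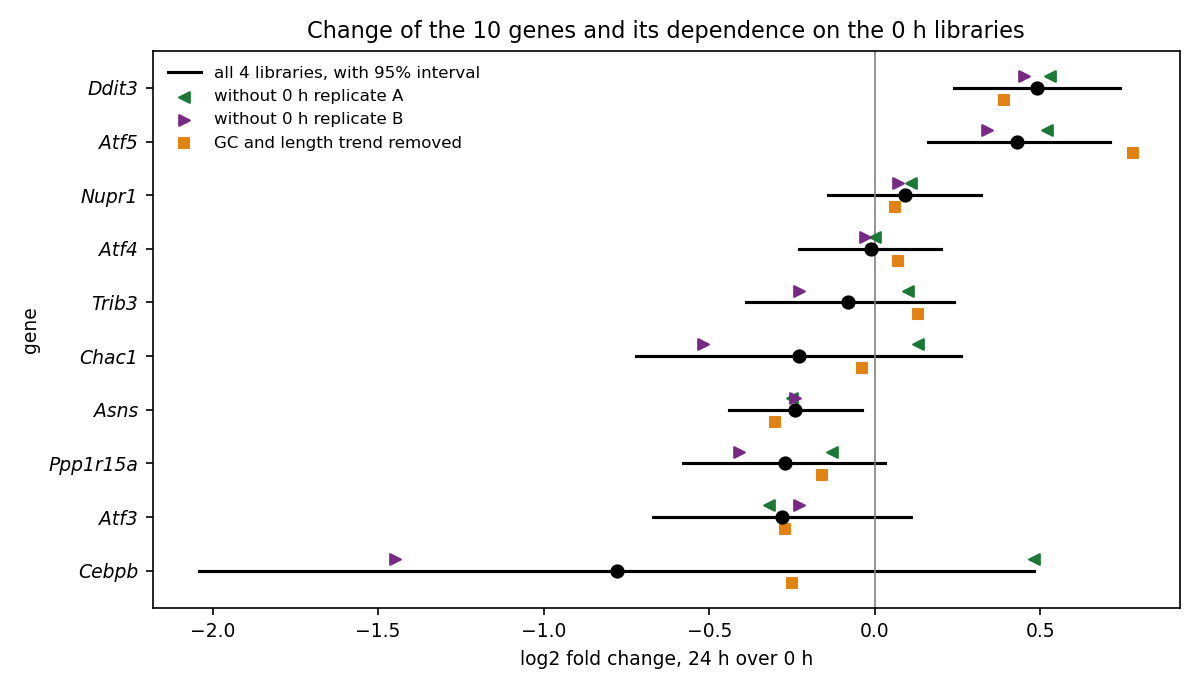
Log2 fold change of each gene, 24 h over 0 h (black point), with its 95% interval (black line), and the value when 0 h replicate A (green) or 0 h replicate B (purple) was left out or the GC and length trend removed (orange). Ddit3, Atf5 and Nupr1 lie right of 0 in every setting drawn and Asns, Ppp1r15a and Atf3 left of it, whereas Cebpb runs from -1.45 to 0.48.

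Differences between the 0 h replicates leaned with GC content. At 0 h, replicate A was higher than B in 8 of the 10 genes, by 1.57-fold for Chac1, 1.25-fold for Trib3 and 1.22-fold for Ppp1r15a. At 24 h, replicate A was higher in 7, by at most 1.30-fold (Cebpb). Across the 10 genes, GC content and the ratio of A to B at 0 h had a Spearman rho of 0.733, and of 0.321 at 24 h. This is a description over genes that share the same libraries.

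Per length, the members spanned a wide range. At 24 h the order was Asns (1420 ± 19 TPM, SD, n = 2), Atf4, Nupr1 (154 ± 2.8), Ddit3 (129 ± 0.85), Trib3 (93.0 ± 3.6), Atf5 (75.6 ± 1.4), Chac1 (52.1 ± 4.4), Ppp1r15a (45.6 ± 1.1), Atf3 (8.59 ± 1.0) and Cebpb (6.57 ± 1.3), and the ranges of neighbours did not overlap. At 0 h, Asns was at 1640 ± 22 TPM and Nupr1 at 141 ± 2.0, followed by Trib3 (95.7 ± 15) and Ddit3 (89.5 ± 3.0), which overlapped each other. Chac1, Atf5 and Ppp1r15a (59.5 ± 18, 54.7 ± 4.4 and 53.9 ± 7.2 TPM) also overlapped their neighbours in that order, as did Cebpb and Atf3. Of the 10, 8 stood above percentile 75 of all genes tested, with Asns at 99.3. The length used is that of all annotated exons joined, which is longer than the transcript in use for some genes, so that the TPM understates those.

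Counts taken relative to Atf4 in the same library do not depend on how libraries are scaled. Ddit3 had 132.8 and 131.9 counts per 1000 Atf4 counts in the 24 h libraries, against 95.18 and 91.5 in the 0 h libraries. Atf5 had 90.03 and 90.99 at 24 h, against 69.87 and 62.86 at 0 h. Asns had 2381 and 2298 at 24 h, against 2699 and 2771 at 0 h. Ddit3 and Atf5 thus gained on Atf4 and Asns lost on it in both 24 h libraries, which does not tell which of them moved. Nupr1 also lay higher at 24 h without overlap, and Ppp1r15a and Atf3 lower. The ratios were not tested, and in CPM 58.8% of all genes tested did not overlap. Each library's trend with GC content and length remains in them. With it removed, the log2 fold changes were 0.39 (Ddit3), 0.78 (Atf5), -0.30 (Asns) and 0.07 (Atf4). Trib3 (123.0 and 114.6 at 24 h, against 136.8 and 110.8 at 0 h) and Chac1 (54.67 and 47.78 at 24 h, against 72.11 and 46.53 at 0 h) overlapped. Relative to Asns, Ddit3 was 1.66 times and Atf5 1.59 times as high at 24 h as at 0 h. Asns and Atf4 together held 82.1% and 82.4% of the members' counts at 24 h, against 83.6% and 85.6% at 0 h.

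**Figure D3:**
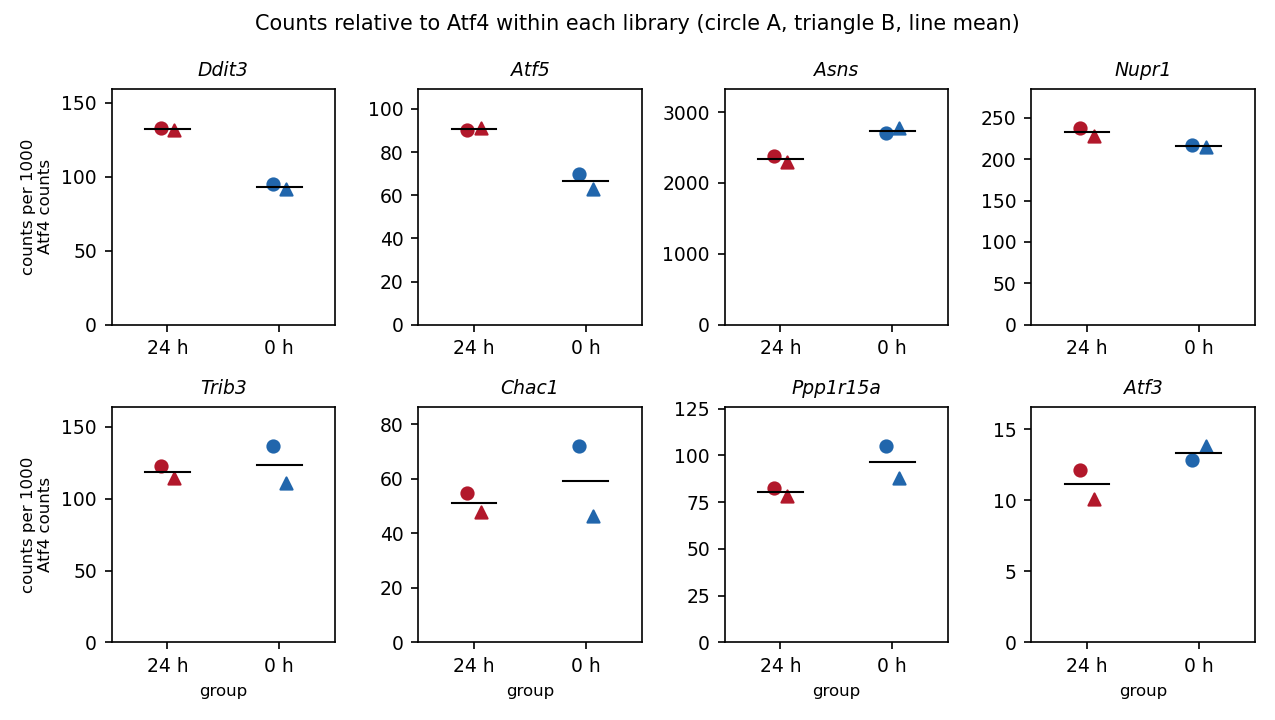
Counts of 8 genes per 1000 Atf4 counts of the same library, with 24 h left of 0 h, circles for replicate A, triangles for B and a line at the mean. Axes start at 0. Ddit3, Atf5 and Nupr1 lie higher at 24 h without overlap, Asns, Ppp1r15a and Atf3 lower, and Trib3 and Chac1 overlap.

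Around the 10 genes, 8 lists of the wider pathway (108 genes, 107 of them tested) held few called genes in the main test. Of the 107, 2 rose, 2 fell and 103 did not pass edgeR's test, which is 3.74% called against 6.8% of all genes tested. Their median log2 fold change was -0.04. The count depended on the processing even with all 4 libraries kept. It was 34 on removal of the GC and length trend (7 higher, 27 lower). That is 31.8% of the list genes tested, against 26.1% of all genes in that setting. With that and the replicate block it was 44 (10 higher, 34 lower), 41.1% against 33.6%. With the replicate block alone it was 17 (15.9% against 18.1%). With no filter it was 16 (14.8% against 9.71% of 26673 genes, which include the low-count genes that the filter drops). The lists' share thus lay above that of all genes in some settings and below it in others. The count also changed with each library left out.

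**Figure D4:**
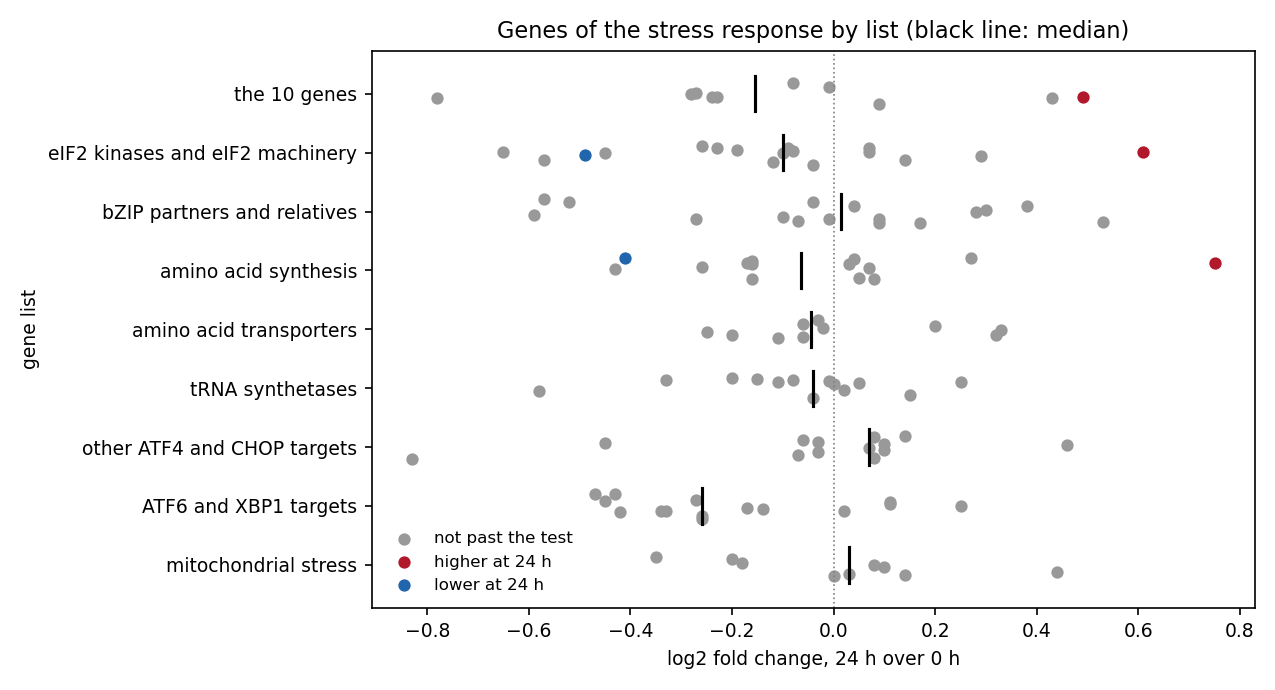
Log2 fold change, 24 h over 0 h, of each tested gene in the 10 genes and in the 8 lists, with a black line at each list's median, genes past edgeR's test higher in red and lower in blue. Points lie on both sides of 0 in every list, and the lowest list median is that of the ATF6 and XBP1 targets at -0.26.

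Upstream of ATF4, 17 genes of the eIF2 kinases, the eIF2 and eIF2B complexes and their regulators were measured. In edgeR's test 1 rose, 1 fell and 15 did not pass, which is 11.8% called against 6.8% of all genes tested. In value 5 were higher and 12 lower, and 6 had an unadjusted p under 0.05 (25.8% of all genes tested). DESeq2 called 1 higher and 3 lower (11.1% of all genes called), and limma voom 1 and 0 (6.03%). Removal of the GC and length trend gave 1 and 5 in edgeR (26.1%). Impact, which restrains the amino acid sensing kinase GCN2, rose to 113.0 and 112.0 CPM at 24 h, against 71.16 and 76.66 CPM at 0 h (log2 fold change 0.61, edgeR adjusted p = 0.0209). Eif2b5, the catalytic subunit of the exchange factor eIF2B, fell to 347.5 and 344.8 CPM at 24 h, against 524.8 and 445.1 CPM at 0 h (log2 fold change -0.49, edgeR adjusted p = 0.0475). Both kept their sign without each library in turn. Without 24 h replicate A the log2 fold changes were 0.58 for Impact and -0.51 for Eif2b5, and without 24 h replicate B 0.60 and -0.49, of like size but not past edgeR's test (adjusted p = 0.304 to 0.477). Eif2b5 also missed the threshold in limma voom (adjusted p = 0.0519) and with library size scaling in edgeR (0.054). The list's median was -0.10. Of the 4 kinases themselves, Eif2ak1, Eif2ak2, Eif2ak3 and Eif2ak4, the log2 fold changes were 0.07, 0.29, -0.19 and -0.09, and 0 were past edgeR's test (lowest unadjusted p 0.0539, for Eif2ak2). The kinases fell outside the rule for genes named and were chosen after their values were seen.

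In amino acid supply, the arm that ATF4 is best known to raise, calls went in both directions. Of 14 amino acid synthesis and one-carbon genes, Aldh1l2, a mitochondrial folate enzyme, rose to 18.07 and 18.29 CPM at 24 h, against 10.81 and 10.84 CPM at 0 h (log2 fold change 0.75, edgeR adjusted p = 0.0228). Bcat1, which transfers the amino group of branched-chain amino acids, fell to 674.7 and 679.2 CPM at 24 h, against 941.5 and 863.2 CPM at 0 h (log2 fold change -0.41, edgeR adjusted p = 0.0476). Without 24 h replicate A the log2 fold changes were 0.74 for Aldh1l2 and -0.43 for Bcat1, and without 24 h replicate B 0.73 and -0.43, of like size but not past edgeR's test (adjusted p = 0.202 to 0.547). Bcat1 also missed the threshold with upper quartile scaling (edgeR adjusted p = 0.0562), library size scaling (0.062) and in limma voom (0.0512). The other 12 did not pass, so that 14.3% of the 14 were called, against 6.8% of all genes tested, and the median was -0.07. Aldh1l2 shares 14.1% of its exonic bases, and Bcat1 3.6%, with a gene on the other strand. Of 10 amino acid transporters and 13 tRNA synthetases, 0 and 0 passed edgeR's test, with 1 and 3 at an unadjusted p under 0.05 (25.8% of all genes tested), 0 and 1 in DESeq2's Wald test (11.1% of all genes) and 0 and 0 in limma voom (6.03%). Slc1a4, a transporter of neutral amino acids, was at 110.2 and 108.8 CPM at 24 h, against 95.24 and 79.79 CPM at 0 h, and Slc38a2, another, had a log2 fold change of 0.20 (edgeR adjusted p = 0.149 and 0.234). Vars, the valyl-tRNA synthetase, was at 289.5 and 283.9 CPM at 24 h, against 519.9 and 335.9 CPM at 0 h, a log2 fold change of -0.58, which was -0.23 without 0 h replicate A and -0.86 without B.

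Among 13 further targets of ATF4 or CHOP and 16 tested genes listed as bZIP partners and relatives, 0 and 0 passed edgeR's test. An unadjusted p under 0.05 was found in 2 and 4, a share no higher than that of all genes. DESeq2 called 1 and 1, and limma voom 0 and 0. Ddit4, an inhibitor of mTORC1, was at 227.3 and 210.0 CPM at 24 h, against 174.5 and 142.7 CPM at 0 h (log2 fold change 0.46, edgeR adjusted p = 0.0764). Removal of the GC and length trend put it past the test at 0.65 (edgeR adjusted p = 0.000427). Eif4ebp1, a repressor of translation, was at 341.0 and 330.3 CPM at 24 h, against 548.8 and 367.3 CPM at 0 h, and its log2 fold change of -0.45 was -0.13 without 0 h replicate A and -0.71 without B. Jund had a log2 fold change of -0.57, which was -0.24 without 0 h replicate A and -0.85 without B, and Nfe2l2, the antioxidant regulator NRF2, one of 0.30 (edgeR adjusted p = 0.125 for each).

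The endoplasmic reticulum branch leaned lower in value. Of 15 ATF6 and XBP1 targets, mostly chaperones and folding enzymes, 0 passed edgeR's test, 8 had an unadjusted p under 0.05 (25.8% of all genes tested), 2 were lower in DESeq2 and 0 in limma voom. Their median log2 fold change was -0.26, against -0.01 over all genes tested, and 10 of the 15 were lower in both 24 h libraries than in both 0 h libraries (29.5% of all genes tested). Removing each library's GC and length trend gave 10 lower and 0 higher in edgeR's test, leaving out 0 h replicate A gave 9 lower and 0 higher, leaving out 0 h replicate B gave 10 lower and 2 higher, and leaving out either 24 h library gave 0. Lower calls made up 14.6%, 15.8% and 27.0% of all genes in the first 3 of these settings. Pdia6, a disulfide isomerase, was at 267.3 and 263.5 CPM at 24 h, against 375.6 and 337.7 CPM at 0 h (log2 fold change -0.43, edgeR adjusted p = 0.0529). Ern1, the sensor IRE1 that splices Xbp1, was at 17.71 and 16.31 CPM at 24 h, against 23.42 and 23.17 CPM at 0 h (log2 fold change -0.45, edgeR adjusted p = 0.0807).

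Of 9 genes of the mitochondrial stress response, 0 passed edgeR's test, 1 had an unadjusted p under 0.05, and 0 passed in DESeq2 or limma voom. Lonp1, a matrix protease, was at 202.0 and 202.5 CPM at 24 h, against 293.9 and 220.1 CPM at 0 h. Hspe1, the matrix co-chaperonin, was at 133.1 and 146.2 CPM at 24 h, against 80.41 and 125.2 CPM at 0 h. In both genes 0 h replicate A lay farthest from the other libraries, and 7.6% of the exonic bases of Hspe1 are shared with Hspd1 on the other strand. The log2 fold changes, -0.35 and 0.44, were -0.12 and 0.16 without it, and -0.54 and 0.79 without 0 h replicate B. Dele1, which relays mitochondrial stress to an eIF2 kinase and was chosen after its values were seen, had a log2 fold change of 0.08.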

How the data were processed

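Per the labels' protocols, 4 stranded mRNA libraries were sequenced as single-end reads. The authors deposited raw counts per Ensembl gene. The submitters' processing notes list TopHat2, HTSeq, DESeq and mm10, with neither version nor role, and the sources used here give neither annotation release nor strand setting of the counting. GENCODE M21 (GRCm38, the same assembly as mm10) supplied symbols, positions, GC content and lengths (563 of 45706 identifiers unmatched, 0.107% of counts).

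Genes were filtered with filterByExpr (minimum count 10, minimum total 15), scaled by TMM and tested 2-sided in R 4.3.3 by the quasi-likelihood method of edgeR 4.0.16, with legacy=TRUE, Benjamini-Hochberg adjustment over 18005 genes and a threshold of 0.05. SEs and 95% intervals were derived from the test's F statistic and degrees of freedom. CPM, TPM and ratios were computed here. No label says that replicates A and B came from separate cultures or clones, so p-values reflect the spread of these samples alone, which may be technical, and intervals over 2 libraries rest on pooling the spread over genes. Tested on simulated data for this comparison (17692 genes), 20% of genes raised 1.5-fold were recovered, 68% of those raised 2-fold and 96% of those raised 4-fold.

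The letters A and B entered no block in the main test, since the labels tie them to no clone or day. Alternatives covered scaling, the filter, DESeq2 1.42.0, limma 3.58.1 voom, the block, a spline correction for GC and length, and each library left out. With a library left out, the single sample remaining in its group is taken to vary as the other group does. The members and lists were chosen with earlier results of these data known. Genes named from each of the 8 pathway lists are all past the test up to 6, topped up to 2 by the lowest p. Members, targeted genes, genes sharing exons with a member and all embryonic stem cell markers were also named. Feeder markers were named where called or near 0. The genes with the profile most like Atf4 are not reported here. Figures were drawn with matplotlib 3.10.9.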

Additional observations from a re-analysis of the deposited data

How the results depend on the processing

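Over 13 alternatives, Ddit3 kept its direction, with log2 fold changes from 0.39 to 0.55, and lost its call without either 24 h library. Asns, Atf3, Atf5, Nupr1 and Ppp1r15a also kept their directions in all 13. Atf4 was 0.03 with upper quartile scaling, 0.04 with library size alone, 0.07 with the GC and length trend removed and 0.08 with that and the replicate block. Trib3 was 0.13 with the trend removed, with or without the block, and 0.10 without 0 h replicate A, where Chac1 was 0.13 and Cebpb 0.48. Without 0 h replicate B these 3 were -0.23 (Trib3), -0.52 (Chac1) and -1.45 (Cebpb). The count of members past the test was 2 with upper quartile scaling, library size, DESeq2's Wald test and the replicate block, 3 with the trend removed with or without the block, and 0 to 7 with a library left out. The genes past the test numbered 2589 with no filter, 1994 in DESeq2, 3253 with the replicate block, 4691 with the trend removed (2055 higher, 2636 lower), 6048 with that and the block, and 506 to 9416 with a library left out. Genes of the 8 wider lists past the test numbered 16 with no filter, 11 in DESeq2, 2 in limma voom, 17 with the replicate block, 34 with the trend removed, 44 with that and the block, and 0 to 69 with a library left out. Whether the letters pair the samples is not known: no label ties them, and the deviations of the A libraries correlated at 0.0451. The cause of these shifts was not tested. The members with the fewest counts, Cebpb (111 to 440) and Atf3 (258 to 363), had SEs of 0.54 and 0.17.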

Other observations

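Among the 8 wider pathway lists, 85 genes had a RefSeq promoter window, and 14 of their 103 windows (13.6%) matched the C/EBP-ATF response element, against 3.97% of all windows of that length. The endoplasmic reticulum stress element was in 6 of the 103 (5.83%), against 0.119% of all windows. These lists hold established targets, so the shares describe the choice of genes. Measured against Nupr1 in place of Atf4, Ddit3 had 560.0 and 579.9 counts per 1000 in the 24 h libraries, against 438.5 and 426.7 in the 0 h libraries, and Ppp1r15a had 347.8 and 345.2 at 24 h, against 484.0 and 408.8 at 0 h.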
